A study of Mus musculus with 6 samples.

Results

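The 44 genes described here encode the machinery of cell division: DNA replication, replication-coupled histones, cyclins of the G1/S transition, and the G2 phase and mitosis. They were taken as a fixed list of symbols, and all 44 were found among the 32285 genes of the count matrices, each with at least 1 UMI (unique molecular identifier, a count of captured RNA molecules). The list was split by textbook role into 15 replication genes, 3 histone genes, 3 G1/S cyclins, 21 G2/M genes and 2 genes, Hmgb2 and Stmn1, that are high in dividing cells but are also used outside the cycle.

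Single-cell RNA was measured in 6 mouse brain libraries made with the 10x 3′ kit, which counts the 3′ ends of transcripts, from animals aged 8 to 12 weeks. Endothelial cells (CD31+Glast-CD45-) and neural stem and progenitor cells (CD31-Glast+CD45-) had been sorted from the subventricular zone, with cortex also named in the labels. The 3 groups hold 2 libraries each, called biological replicates. The labelled genotypes are Cx43flox/flox for the controls, Cx43GlastiKO for a deletion directed at Glast-expressing cells, and Cx43ECiKO for one directed at endothelial cells. Floxed alleles of connexin 43, encoded by Gja1, are thus part of the stated control genotype, and the labels give neither the Cre driver beyond these names nor any inducing agent, nor the number of animals pooled per library. Nor is the way in which the sorted cells were assigned to the libraries given.

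The cells measured were far from evenly spread over the libraries. Replicate 1 of each group was nearly all endothelial-like, with 712, 448 and 388 endothelial-like barcodes among the 750, 487 and 397 used in control, GlastiKO and ECiKO. Replicate 2 of each group held the glia and precursors. Depth differed as well, with medians of 8028, 10825.5 and 787 UMIs per used barcode in replicate 2 of control, GlastiKO and ECiKO. Across the 6 libraries the deposited UMIs ran from 1735247 to 14859187, and 6255 of 7433 barcodes were used. Only 1 barcode sequence occurred in more than 1 library among those used. Gja1 was still read where the labels place the deletion. Astroglial-like cells had 2820, 2617 and 2706 CPM (UMIs per 1000000 UMIs of the class) in replicate 2 of control, GlastiKO and ECiKO, a GlastiKO to control ratio of 0.928 (95% interval 0.891 to 0.966, for counting error only, 1 library each). Endothelial-like cells had 90.7 and 109 CPM in control against 222 and 159 CPM in ECiKO. Which part of Gja1 the alleles remove is not given in the sources used here, so a 3′ tag may lie outside it and check nothing. The group names below are therefore those of the labels only.

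In a dividing cell, E2F transcription factors switch on replication genes as the cell passes from G1 into S phase, under the control of cyclin D, CDK4/6 and the RB protein. Genes for chromosome condensation, the spindle and the anaphase-promoting complex follow in G2 and mitosis, many of them through CHR and CCAAT promoter elements bound by the DREAM and MuvB-containing complexes and by NF-Y. In the adult subventricular zone, quiescent astrocyte-like stem cells give rise to fast-dividing transit amplifying progenitors, which produce neuroblasts that can still divide. Adult brain endothelium, pericytes and mature oligodendrocytes divide rarely.

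Cells were classed by clustering in which neither these 44 genes nor the other cell cycle genes of 4 pathway lists took part. Genes outside those lists did, among them the histone gene Hist1h3c, which was among the 10 leading genes of the precursor-like cluster, so S-phase genes were not wholly absent from the clustering. A precursor-like class of 176 barcodes was named from transit amplifying and neuroblast markers. The presence of these markers therefore restates the naming and is no separate check of it. Some of the transit amplifying markers, such as Cdk6, were also on a pathway list. Cell cycle genes of those lists thus took part in the naming, though not in the clustering. All 7 transit amplifying markers examined (Egfr, Dlx1, Dlx2 and others) and all 10 neuroblast markers (Dcx, Sox11, Tubb3 and others) were found in at least 10% of its cells. Of the markers of other types, 9 of 9 leukocyte markers and 7 of 8 microglial markers were at 0, and the 12 endothelial markers summed to 22.9 CPM with 7 at 0. The 10 markers of oligodendrocyte precursors summed to 1721 CPM, with 3 in at least 10% of cells, so the class also carried RNA of that lineage. Other lists were present too. The 10 astroglial markers summed to 1160 CPM and the 9 oligodendrocyte markers to 698 CPM, each with 3 in at least 10% of cells. The 7 neuron markers summed to 989 CPM, with 4 in at least 10% of cells. It had 1 barcode in control replicate 1, 10 in control replicate 2, 41 in GlastiKO replicate 2, 124 in ECiKO replicate 2 and none in the other libraries. These were 1.07%, 3.45% and 4.97% of the barcodes in replicate 2 of control, GlastiKO and ECiKO, shares that a sort can set.

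Division genes were concentrated in the precursor-like cells, the histone and G2/M genes more than the replication genes. All 44 members had their highest CPM there among the 6 classes compared. The class held 2.43% of all UMIs in used barcodes, but a median of 86.6% of the UMIs of the 21 G2/M members. Every G2/M member had over 50% of its UMIs there, from 50.3% for Kif23 to 98.8% for Top2a. The 3 histone members had 90.8% to 96.3% there. For the 15 replication members the median was 34.2%, with 4 of 15 over 50%, namely Rrm2 at 93.9%, Pclaf at 89.4%, Uhrf1 at 82.5% and Mcm5 at 53.3%. The median over the 13268 genes with at least 50 UMIs was 2.43%, and 183 of them had over 50%. No test was made of these shares, which describe 1 class found mostly in 3 libraries.

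**Figure D1:**
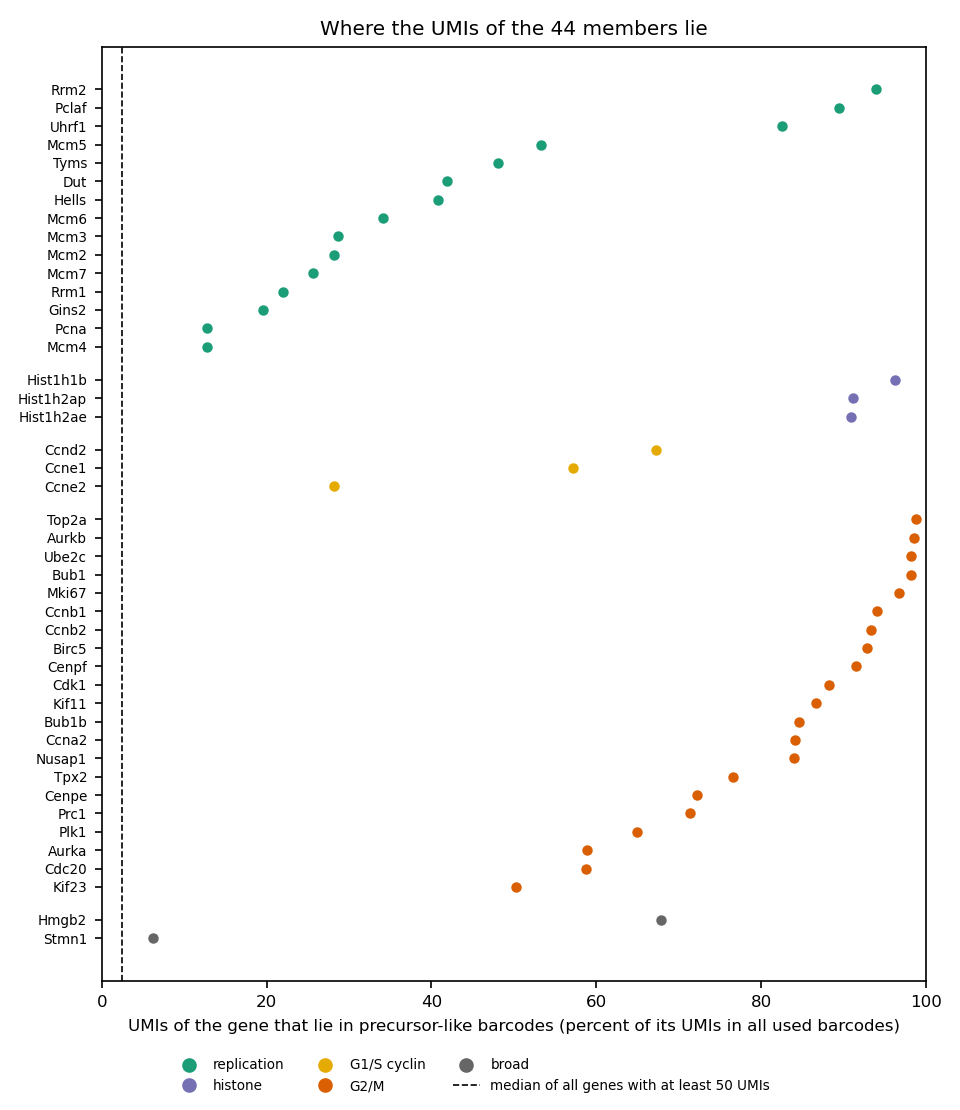
Share of each member's UMIs that fell in precursor-like barcodes, in percent, with 1 point per gene, grouped by role. The G2/M genes lie between 50.3% and 98.8%, the replication genes spread from 12.7% (Mcm4) to 93.9% (Rrm2), and Stmn1 is at 6.20%.

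Summed over the role, the 21 G2/M members reached 4200, 3265 and 5533 CPM in the precursor-like cells of replicate 2 of control, GlastiKO and ECiKO. The same sum over all libraries was 14.9 CPM in astroglial-like, 13.0 in oligodendrocyte-like, 28.5 in endothelial-like, 19.9 in pericyte-like and 21.7 in choroid plexus-like cells. No other class came near the lowest of the 3 precursor values. The replication members were less exclusive: 4058, 2293 and 4266 CPM in precursor-like cells of the same 3 libraries against 94.6 CPM in astroglial-like, 198 in oligodendrocyte-like and 215 in endothelial-like cells. The 3 histone members were as concentrated as the G2/M genes, at 4155, 1350 and 4516 CPM in precursor-like cells and between 3.06 CPM (pericyte-like) and 24.8 CPM (choroid plexus-like) elsewhere. Histone genes are near-identical copies of one another, so their counts may be shared between family members.

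**Figure D2:**
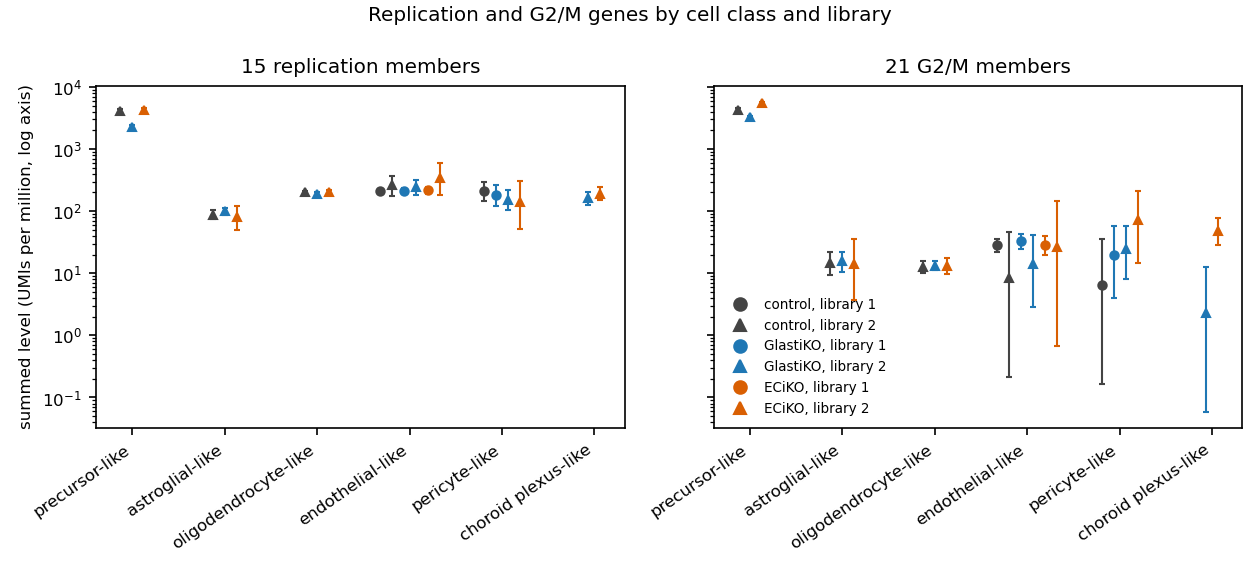
Summed level of the 15 replication members (left) and the 21 G2/M members (right) in UMIs per 1000000 UMIs of the class (log axis) by cell class, with 1 point per library with at least 20 such barcodes (10 in the control precursor-like cells) and 95% Poisson bars. The gap between precursor-like cells and every other class is wider for the G2/M sum (at least 3265 CPM in precursor-like cells) than for the replication sum.

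Among the replication genes, Pcna, the sliding clamp of the DNA polymerases, had 710, 400 and 547 CPM in precursor-like cells of replicate 2 of control, GlastiKO and ECiKO. Pclaf, a partner of PCNA, had 673, 407 and 1037 CPM in the same order. Dut, which removes dUTP from the nucleotide pool, had 590, 263 and 572 CPM. In all of these the GlastiKO library was the lowest. The same held for Rrm1, the large subunit of ribonucleotide reductase, at 269, 132 and 300 CPM, and for Mcm7, a subunit of the replicative helicase, at 276, 163 and 208 CPM. Pcna was far less confined to the class than Pclaf, with 12.8% of its UMIs there against 89.4%.

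Of the G2/M genes, Top2a, the topoisomerase that untangles sister chromatids, had 1024, 590 and 1066 CPM in precursor-like cells of replicate 2 of control, GlastiKO and ECiKO. Mki67, the coat protein of mitotic chromosomes known as Ki-67, had 493, 380 and 699 CPM. Cenpf, a kinetochore protein, had 396, 370 and 540 CPM. The ECiKO library was the highest in each case, with the control between it and the GlastiKO library. Prc1, which bundles microtubules of the central spindle, had 299, 141 and 409 CPM in the same order. Ube2c, the ubiquitin-conjugating enzyme of the anaphase-promoting complex, had 202, 244 and 526 CPM, and for it the control library was the lowest. Outside the precursor-like class Top2a had 8 UMIs in all and Mki67 had 14.

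The 3 histone genes were Hist1h2ap (1539, 485 and 1919 CPM), Hist1h1b (1756, 497 and 1295 CPM) and Hist1h2ae (859, 368 and 1302 CPM), a linker histone and a pair of H2A genes expressed in S phase. GlastiKO replicate 2 was the lowest for each. Ccnd2, the D-type cyclin that activates CDK4/6, had 2212, 2166 and 3924 CPM, and the E-type cyclins Ccne1 and Ccne2, which act at S-phase entry, were thin, with 16 and 22 UMIs in the class. Hmgb2, a chromatin protein, had 2219, 2344 and 4421 CPM and Stmn1, a microtubule-destabilising protein of dividing cells and of neurons, had 2429, 3943 and 4534 CPM. Ccnd2, Hmgb2 and Stmn1 thus had their lowest or near-lowest values in control and their highest in ECiKO. Only 6.20% of the Stmn1 UMIs lay in precursor-like cells, and 47724 of 52075 were in oligodendrocyte-like cells.

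Promoters were compared because the G2/M and the replication genes differed in how sharply they marked the class. The RefSeq table (build GRCm38.p6) held a start for 33 of the 44 members, and the 250 bases before it were searched on both strands for the CHR element (TTTGAA or TTCGAA), the CCAAT box (CCAAT) and an E2F site (TTTCCCGC, TTTGGCGC, TTTCGCGC or TTTGCCGC). Of the 18 G2/M promoters, 9 held a CHR (50%) and 16 a CCAAT box (88.9%), against 19.6% and 37.5% of all promoters in the table. Of the 13 replication promoters, 2 held a CHR, 10 a CCAAT box and 5 (38.5%) an E2F site. The E2F letters were in 2.16% of all promoters and in 1 of the 18 G2/M promoters. These are matches of letters and were not tested. The windows of Top2a and Mki67, the G2/M genes with the most UMIs, and of Rrm1 and Mcm6 from the replication genes are shown with the matches in capitals. Mcm6 was chosen after its letters were seen, to show E2F matches.
Top2a: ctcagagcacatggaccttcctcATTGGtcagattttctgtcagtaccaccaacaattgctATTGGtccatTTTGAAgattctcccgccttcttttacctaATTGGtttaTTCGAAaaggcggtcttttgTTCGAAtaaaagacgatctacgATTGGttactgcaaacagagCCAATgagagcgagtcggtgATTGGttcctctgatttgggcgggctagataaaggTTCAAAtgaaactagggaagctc
Mki67: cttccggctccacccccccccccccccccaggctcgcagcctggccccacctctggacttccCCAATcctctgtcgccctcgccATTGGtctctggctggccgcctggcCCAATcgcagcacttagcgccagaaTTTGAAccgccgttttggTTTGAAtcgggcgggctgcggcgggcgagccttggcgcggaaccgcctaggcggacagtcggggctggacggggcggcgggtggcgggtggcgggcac
Rrm1: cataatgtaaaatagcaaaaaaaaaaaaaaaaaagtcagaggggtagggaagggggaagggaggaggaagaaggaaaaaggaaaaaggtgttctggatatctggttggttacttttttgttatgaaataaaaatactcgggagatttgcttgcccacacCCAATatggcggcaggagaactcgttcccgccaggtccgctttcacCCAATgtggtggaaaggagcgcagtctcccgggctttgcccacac
Mcm6: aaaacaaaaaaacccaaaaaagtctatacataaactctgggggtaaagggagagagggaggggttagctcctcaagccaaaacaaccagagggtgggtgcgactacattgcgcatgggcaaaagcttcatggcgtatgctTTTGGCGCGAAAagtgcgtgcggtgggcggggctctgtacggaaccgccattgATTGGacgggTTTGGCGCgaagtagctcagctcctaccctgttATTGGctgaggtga
These windows are chr11:99024190-99024439 (Top2a, minus strand), chr7:135716380-135716629 (Mki67, minus strand), chr7:102441445-102441694 (Rrm1, plus strand) and chr1:128359706-128359955 (Mcm6, minus strand), each written 5′ to 3′ along its gene. Top2a has 4 CHR and 6 CCAAT matches and Mki67 has 2 and 3. Rrm1 has 2 CCAAT matches and none of the other letters, and Mcm6 has 2 CCAAT and 3 E2F matches, the first 2 of which overlap as TTTGGCGC and the reverse complement of TTTCGCGC.

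Per barcode, a cell was called G2/M-marked with UMIs of at least 3 of the 21 G2/M members, and S-marked with UMIs of at least 3 of the 18 replication and histone members. Of the 94 used barcodes that were G2/M-marked, 91 were precursor-like. The other 3 were 1 astroglial-like barcode of GlastiKO replicate 2 and 1 oligodendrocyte-like and 1 choroid plexus-like barcode of ECiKO replicate 2. None of 1680 endothelial-like barcodes was marked, which allows a share of up to 0.179%, and none of 146 pericyte-like barcodes, which allows up to 2.05%. In these libraries, G2/M RNA of several genes in 1 barcode was not detected in vascular cells at this depth. Intervals and limits here cover counting error only.

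S marks were commoner but moved with depth. S-marked barcodes made up 69.3% of precursor-like cells (122 of 176), and also 445 of 2976 oligodendrocyte-like and 58 of 1680 endothelial-like barcodes. In oligodendrocyte-like cells the share was 34.4% and 39.5% in replicate 2 of control and GlastiKO, where their median depth was 15784.5 and 17572 UMIs, and 2.76% in ECiKO replicate 2, at a median of 770 UMIs. After every barcode was thinned to 1000 UMIs, 1 of 1674 oligodendrocyte-like and 1 of 1517 endothelial-like barcodes remained S-marked, against 48 of 95 precursor-like ones. G2/M marks after thinning stood at 42 of 95 precursor-like barcodes and at 0 of 1674 and 0 of 1517. Any UMI of a G2/M member was seen in 54.7% of thinned precursor-like barcodes, 2.14% of astroglial-like, 1.91% of endothelial-like and 0.717% of oligodendrocyte-like ones. The oligodendrocyte-like share, from mature cells not known to divide, serves as the background level. Thinned to 2000 UMIs, the shares were 55.2%, 2.95%, 4.70% and 3.14% in the same order. The astroglial-like share was thus above this background at 1000 UMIs but not at 2000.

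Within the precursor-like class the marks fell into 4 sets: 80 barcodes carried both, 42 the S mark only, 11 the G2/M mark only and 43 neither. The G2/M-marked share was 7 of 10 in control replicate 2 (70.0%, 95% Clopper-Pearson interval 34.8 to 93.3), 8 of 41 in GlastiKO replicate 2 (19.5%, 8.82 to 34.9) and 76 of 124 in ECiKO replicate 2 (61.3%, 52.1 to 69.9). The GlastiKO share was the lowest, and its interval touches that of the control. Median depth ran the other way between the last 2, at 7341 UMIs in GlastiKO and 812.5 in ECiKO, with 12149 in control. Thinned to 1000 UMIs, the shares were 4 of 9, 5 of 37 (13.5%) and 33 of 49 (67.3%), with 1, 4 and 75 barcodes too shallow to enter. S-marked shares were 8 of 10, 24 of 41 (58.5%) and 90 of 124 (72.6%) in full, and 5 of 9, 8 of 37 (21.6%) and 35 of 49 (71.4%) when thinned. Each group has 1 library with enough such cells, so there is no test between groups and no replicate check. The class differed in make-up between the libraries. Its 10 neuroblast markers summed to 4342, 8334 and 5406 CPM in control, GlastiKO and ECiKO, so the library with the fewest marked cells had the most neuroblast RNA, and the part of this in the shares was not tested. When the cell cycle genes also took part in the clustering, 4, 30 and 17 of these barcodes went to an unnamed cluster with Dcx and Stmn2 among its leading genes, where 1 was marked in each library. The precursor-like cluster then kept 6, 9 and 106 barcodes, of which 6, 7 and 75 were marked, but the marking genes helped to draw that class.

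**Figure D3:**
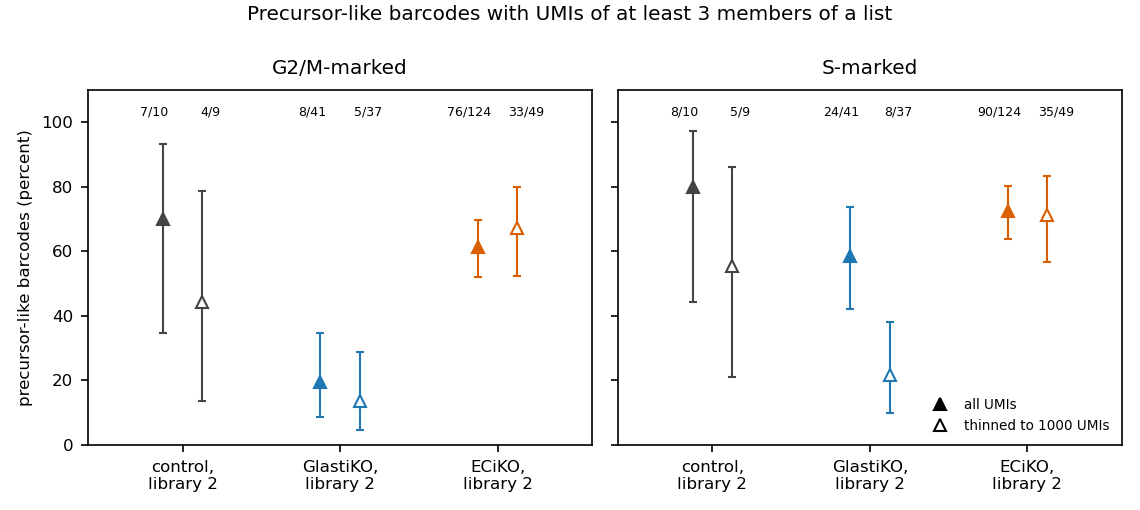
Percent of precursor-like barcodes that were G2/M-marked or S-marked in replicate 2 of each group, before and after thinning to 1000 UMIs, with 95% Clopper-Pearson intervals. Filled symbols use all UMIs and open ones the thinned barcodes, with counts above. The GlastiKO library is the lowest of the 3 in each panel, at 19.5% and 13.5% for the G2/M mark and 58.5% and 21.6% for the S mark, and the control intervals are wide because it has 10 such barcodes.

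The balance of G2/M against S genes set the precursor-like cells apart in the same way. They had 1.03 (95% interval 0.918 to 1.17), 1.42 (1.31 to 1.55) and 1.30 (1.20 to 1.40) G2/M UMIs per replication UMI in replicate 2 of control, GlastiKO and ECiKO. The ratio was 0.158 in astroglial-like, 0.0660 in oligodendrocyte-like, 0.133 in endothelial-like and 0.113 in pericyte-like cells. The ratio compares classes, since genes differ in length and capture. In non-precursor classes, replication genes were thus present with little G2/M RNA beside them. Endothelial-like cells had 1212 replication UMIs and 161 G2/M UMIs.

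Between the groups, the replication sum of the precursor-like cells in GlastiKO replicate 2 was 0.565 times that of control replicate 2 (95% interval 0.508 to 0.629), the histone sum 0.325 times (0.288 to 0.366) and the G2/M sum 0.778 times (0.704 to 0.860). In ECiKO replicate 2 the replication sum was 1.05 times the control (0.949 to 1.17) and the G2/M sum 1.32 times (1.20 to 1.45). Of 28 members with at least 50 UMIs over both libraries, 13 had a whole interval below 1 in GlastiKO against control and 1 above, where 10.5% and 12.7% of all such genes did. The 1 above was Stmn1, at 1.62 (1.44 to 1.83). Of 30 members in ECiKO against control, 11 lay above 1 and 1 below (Hist1h1b, 0.737), against 15.8% and 9.54% of all genes. Both ratios share the control library. Between the knockouts themselves, 26 of 34 members were higher in ECiKO and none lower, against 14% and 11.3% of all genes.

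These sums rest on few cells. A single barcode held 44.1% of the G2/M UMIs of control replicate 2, 29.2% of those of GlastiKO and 16.5% of those of ECiKO, and the top 3 barcodes held 88.3%, 64.2% and 36.2%. For the histones the top barcode held 68.0%, 36.5% and 23.9%. The intervals of the ratios count UMIs and not cells, so they are too narrow for a comparison of animals. Oligodendrocyte markers in the precursor-like cells also differed, at 164, 266 and 1577 CPM in control, GlastiKO and ECiKO, as did the neuroblast markers given above, highest in GlastiKO. The part of either in these differences was not tested. In sums of this kind a smaller share of dividing cells and less RNA per dividing cell cannot be told apart.

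Lineage markers differed between marked and unmarked precursor-like cells. Over 5 transit amplifying genes outside the cell cycle lists (Egfr, Dlx1, Dlx2, Insm1 and Gsx2), G2/M-marked cells had 1230 CPM against 124 in unmarked cells of control replicate 2, 1602 against 828 in GlastiKO and 1681 against 879 in ECiKO. All 5 genes were higher in marked cells in each library, though Dlx1 in ECiKO was nearly level, at 553 against 544 CPM. Median depth was 6600, 22153 and 963.5 UMIs in marked cells of control, GlastiKO and ECiKO. In unmarked cells it was 15287, 6678 and 716 UMIs, and its part in these differences was not tested. The 10 neuroblast markers summed to 3691, 7227 and 5158 CPM in marked cells, with ratios to unmarked cells of 0.631, 0.786 and 0.840. Only 2, 3 and 1 of the 10 were higher in marked cells. Sox11, a transcription factor of immature neurons, was higher in marked cells of each library (1926 against 1438, 3249 against 2853 and 3061 against 1939 CPM) and gave 180 of 345, 584 of 1299 and 648 of 1092 of the marked cells' UMIs of the list. Dcx, a microtubule protein of migrating neuroblasts, was lower in them, at 53.5 against 545, 417 against 724 and 203 against 628 CPM. Markers of oligodendrocyte precursors lay almost wholly on the unmarked side, with ratios of 0.0523, 0.141 and 0.0314. Most of them came from few unmarked cells. Pdgfra had UMIs in 2 of 3, 3 of 33 and 4 of 48 unmarked cells of control, GlastiKO and ECiKO. Vcan was the most widespread of the list, in 3, 22 and 11 of them. These ratios come from 1 library each and have no test, and in control replicate 2 only 3 cells were unmarked, with 5 UMIs of the transit amplifying genes.

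**Figure D4:**
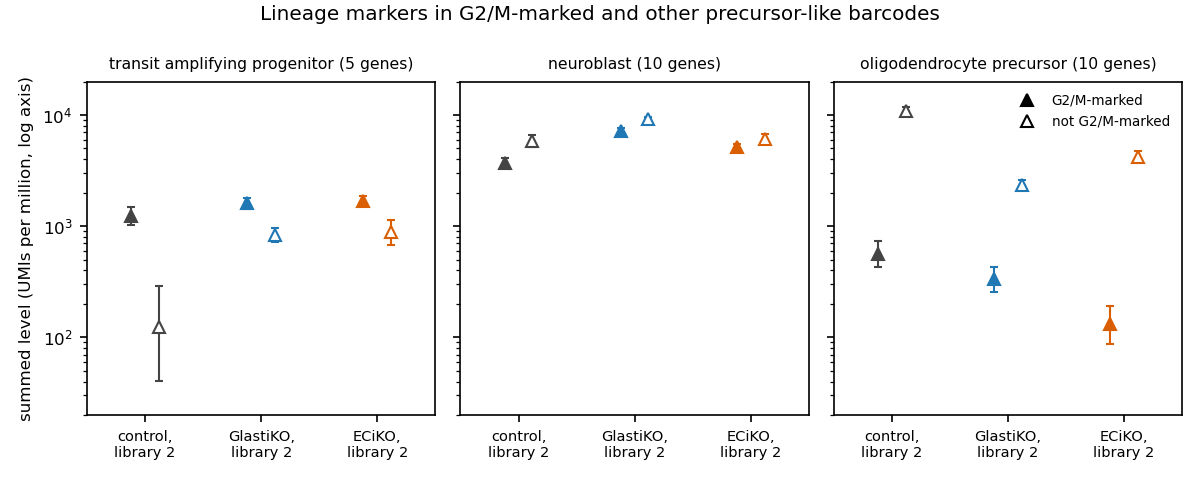
Summed CPM (log axis) of transit amplifying, neuroblast and oligodendrocyte precursor markers in G2/M-marked and unmarked precursor-like cells of replicate 2 of each group, with 95% Poisson intervals. Transit amplifying markers are higher in marked cells in all 3 libraries and oligodendrocyte precursor markers lower, as in ECiKO at 132 against 4213 CPM.

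Other genes of the same pathways followed the members in part. Their lists, like the members, were chosen with earlier results of these data known. Of 27 other S-phase genes with at least 50 UMIs, 7 had over 50% of their UMIs in precursor-like cells (median 21.6%), and of 30 other G2/M genes 14 did (median 42.2%). Among 16 replication fork and origin genes 2 did (median 18.3%), and of 16 genes of the E2F, RB and cyclin D module none did (median 14.2%). The genes with the most UMIs in the class were Cdca7, Nasp, Slbp and Atad2 for S phase, Tmpo, Smc4, Anp32e and Jpt1 for G2/M, Rfc3, Rfc4, Lig1 and Dnmt1 for the fork, and Tfdp1, Ccnd1, Cdk4 and Cdk6 for the E2F module. Cdk6 was also among the transit amplifying markers that helped to name the class, so its presence there restates the naming.

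Endothelial-like cells were the only class with at least 20 barcodes in each of the 6 libraries, the minimum set for a sum, so the group comparison was tested there. No member passed the test in either knockout. With edgeR's quasi-likelihood test on summed UMIs, 8516 genes were tested, 11 of them members, and the other 33 members were too low to enter. Of the 11, 0 passed an adjusted p of 0.05 in GlastiKO against control, where 0.294% of all genes did (25 genes), and 0 passed in ECiKO against control, where 0.211% did (18 genes). None of the 11 had an unadjusted p under 0.05 in either comparison, and DESeq2 also called none. The median log2 fold change of the 11 was 0.12 in GlastiKO (7 higher, 4 lower) and 0.05 in ECiKO (6 higher, 5 lower), beside 0.01 and -0.02 over all genes. None of the 4 other pathway lists had a gene that passed either.

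Pcna had 57.3 and 83.6 CPM in endothelial-like cells of control replicates 1 and 2, 83.3 and 74.7 in GlastiKO and 73.5 and 79.5 in ECiKO. The groups overlap, and the edgeR log2 fold changes were 0.44 ± 0.33 (SE) in GlastiKO and 0.29 ± 0.35 in ECiKO. Ccnd2 had 76.0 and 50.2 CPM in control, 65.9 and 46.7 in GlastiKO and 54.5 and 79.5 in ECiKO, with log2 fold changes of -0.18 ± 0.34 and -0.31 ± 0.37. Hmgb2 had 95.5 and 100 CPM in control, 107 and 121 in GlastiKO and 82.6 and 53.0 in ECiKO, where its log2 fold changes were 0.25 ± 0.30 and -0.24 ± 0.33. For Hmgb2 the library values of the groups do not overlap, but neither difference passed the test. Its ECiKO replicate 2 value rests on few UMIs, since Hmgb2 and Stmn1 together had 5 of 37723 there. Stmn1 had 95.9 and 176 CPM in control, 71.7 and 224 in GlastiKO and 97.5 and 79.5 in ECiKO. Its GlastiKO values thus spanned those of all other libraries. Oligodendrocyte markers, whose cells carry most Stmn1, summed to 19.5, 18.1 and 17.3 CPM in endothelial-like cells of replicate 1 of control, GlastiKO and ECiKO and to 427, 247 and 742 CPM in those of replicate 2, and their part in the Stmn1 level was not tested. The member farthest from 0 was Mcm3, at -1.05 ± 0.69 in GlastiKO, and it did not pass.

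**Figure D5:**
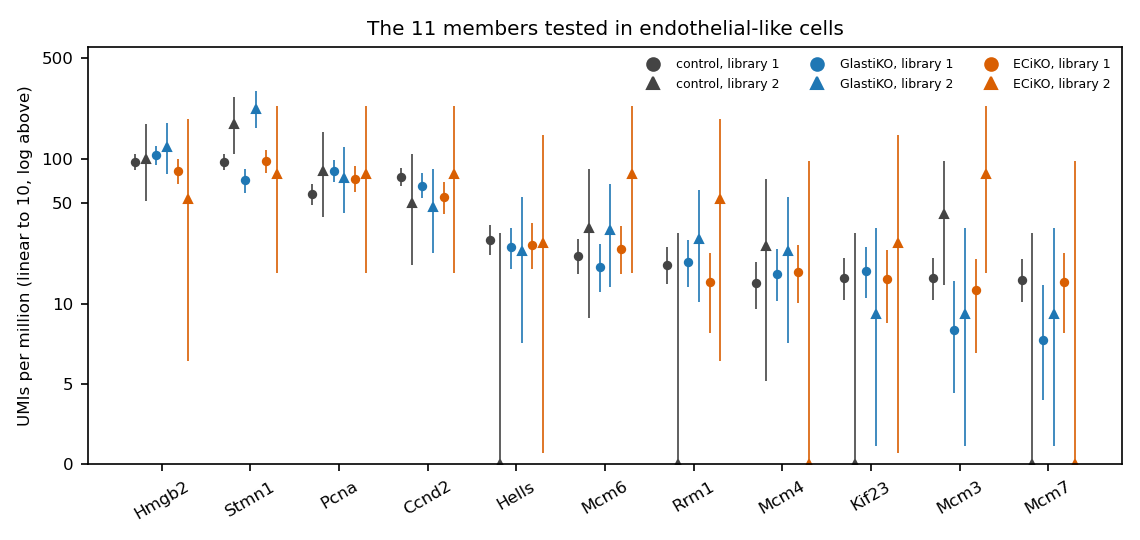
UMIs per 1000000 UMIs of the 11 members tested in endothelial-like cells (axis linear to 10 and log above), with 1 point per library, circles for replicate 1, triangles for replicate 2, groups in colour and 95% Poisson bars. The groups overlap for most members, as for Pcna at 57.3 to 83.6 CPM over the 6 libraries.

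The endothelial sums ran from 37723 UMIs (ECiKO replicate 2, 20 barcodes) to 2513822 (control replicate 1), so replicate 1 carries most of the information. Among the 11 members the SE of a log2 fold change ran from 0.30 (Hmgb2, GlastiKO) to 0.75 (Mcm7, ECiKO). In simulated counts with changed genes at 20 CPM or more, the fit recovered 24% of 2-fold changes in GlastiKO and 14% in ECiKO. Of 4-fold changes it recovered 90% and 89%. A 2-fold difference in a member would thus mostly be missed at this depth.

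Kif23, a kinesin of the central spindle and midbody, was the exception among the G2/M genes, a choice made once its values were known. It had 85 UMIs in endothelial-like cells, 1 in oligodendrocyte-like and 0 in astroglial-like cells. All 21 G2/M members together had 161 UMIs in endothelial-like cells. In these cells it had 15.1 and 0 CPM in control replicates 1 and 2, 16.8 and 9.33 in GlastiKO and 14.9 and 26.5 in ECiKO. The 3 libraries with over 1000000 endothelial UMIs thus lay within 14.9 to 16.8 CPM. No endothelial-like barcode was G2/M-marked. Of the 71 endothelial-like barcodes with Kif23, 5 (7.04%) also had a UMI of another G2/M member, beside 66 (4.10%) of those without it. GENCODE M21 places Kif23 on mm10 at chr9:61915905-61946774 on the minus strand, with no gene overlapping it on either strand. Its log2 fold changes in endothelial-like cells were 0.23 ± 0.61 in GlastiKO and 0.23 ± 0.67 in ECiKO, and neither passed the edgeR test.

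Between the other classes, the low levels of the members were tested with edgeR on sums per library and class, with the library as a block. Oligodendrocyte-like cells had more RNA of several replication genes than astroglial-like cells. Of 16 members tested over 3 libraries, 9 were lower in astroglial-like cells, where 35.2% of all genes were lower, and 4 were higher, where 36.4% were. Pcna had 22.8, 23.1 and 27.7 CPM in astroglial-like and 107, 101 and 108 CPM in oligodendrocyte-like cells of replicate 2 of control, GlastiKO and ECiKO, with no overlap. Its log2 difference was -2.47 ± 0.17 (adjusted p = 8.32e-10, lower in astroglial-like cells in 3 of 3 libraries). The others that were lower were Mcm2, Mcm3, Mcm4, Mcm7, Rrm1, Gins2, Prc1 and Stmn1, the last at -6.04 ± 0.21. Ccnd2 had 44.3, 81.8 and 97.0 CPM in astroglial-like and 0.717, 0.374 and 3.42 CPM in oligodendrocyte-like cells of the same libraries. It was higher in astroglial-like cells by 5.75 ± 0.35 (adjusted p = 1.46e-10), and so were Tyms (2.24 ± 0.50), Hells (1.85 ± 0.67) and Hmgb2 (1.33 ± 0.20). With DESeq2, 5 of the 9 lower calls (Mcm3, Mcm4, Mcm7, Gins2 and Prc1) and that of Hells no longer passed, and without GlastiKO replicate 2 the edgeR fit called 5 lower.

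Endothelial-like cells, compared with oligodendrocyte-like cells of the same 3 libraries, had more Ccnd2 (log2 difference 5.37 ± 0.75), Hells (3.74 ± 1.16), Mcm6 (3.03 ± 0.69) and Hmgb2 (2.46 ± 0.38), which made 4 of 17 members higher where 18.9% of all genes were. Stmn1 (-4.05 ± 0.29) and Pcna (-0.82 ± 0.32) were lower, 2 of 17 where 25.5% of genes were. The Pcna call ended with DESeq2 (adjusted p = 0.161) and without GlastiKO or control replicate 2. Mcm6 had 33.5, 32.7 and 79.5 CPM in endothelial-like cells of replicate 2 of control, GlastiKO and ECiKO, from 4, 7 and 3 UMIs, and 4.30, 2.99 and 3.95 CPM in oligodendrocyte-like cells, without overlap. Hells was higher in endothelial-like cells in 2 of 3 libraries only. Its TMM-scaled levels in the endothelial fit were 0, 23.8 and 23.3 CPM in replicate 2 of control, GlastiKO and ECiKO. Hells is a chromatin remodeller of the SNF2 family, and Mcm6 is a helicase subunit. Against astroglial-like cells of 3 libraries, 5 members could be tested. Stmn1 (-1.74 ± 0.30), Pcna (-1.35 ± 0.40), Mcm3 (-2.63 ± 0.81) and Hmgb2 (-0.80 ± 0.35) were lower in astroglial-like cells, where 24.9% of genes were, and 0 were higher, where 30.3% of genes were. With DESeq2 only the Stmn1 call held among these 4, and the adjusted p was 0.0582 for Mcm3, 0.147 for Pcna and 0.497 for Hmgb2. Without control replicate 2 the adjusted p of Hmgb2 in edgeR was 0.345.

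Against pericyte-like cells of 4 libraries, 4 members could be tested. Hmgb2 had 116, 217, 254 and 23.6 CPM in pericyte-like cells of control replicate 1, GlastiKO replicates 1 and 2 and ECiKO replicate 2, the last from 1 UMI, and 95.5, 107, 121 and 53.0 CPM in endothelial-like cells of the same libraries. Hmgb2 was lower in endothelial-like cells (-0.75 ± 0.28, edgeR adjusted p = 0.0192, lower in 3 of 4 libraries), 1 of 4 where 24.8% of genes were lower, and 0 were higher, where 28.9% were. That call ended with DESeq2 (adjusted p = 0.156) and, in edgeR, without GlastiKO replicate 1 (0.210) or 2 (0.117). Pericyte-like cells had 115 replication UMIs and 13 G2/M UMIs in all. Stmn1, a microtubule-destabilizing protein, had 0, 0, 127 and 1181 CPM in them in the same library order, 50 UMIs in the ECiKO library. The 9 oligodendrocyte markers moved with it, at 0, 19.7, 2253 and 21430 CPM, and their part in the Stmn1 levels was not tested.

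In oligodendrocyte-like and astroglial-like cells the group values again come from replicate 2 only. The G2/M sum of oligodendrocyte-like cells in GlastiKO and ECiKO replicate 2 was 1.03 times that in control in both cases (0.786 to 1.36 and 0.713 to 1.47). Of 13 members with at least 50 UMIs in oligodendrocyte-like cells of GlastiKO and control, 2 (Mcm4 and Hmgb2) had a whole interval above 1, where 9.2% of all genes did, and 4 (Mcm7, Rrm1, Prc1 and Stmn1) below, where 11.1% did. Of 10 in ECiKO against control, 1 (Gins2) lay above, beside 6.68% of all genes, and 2 (Mcm7 and Rrm1) below, beside 12.3%. Of 10 in ECiKO against GlastiKO, 2 (Gins2 and Stmn1) lay above and 1 (Hmgb2) below, beside 8.5% and 13.2%.

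In astroglial-like cells Ccnd2 had 44.3, 81.8 and 97.0 CPM in replicate 2 of control, GlastiKO and ECiKO, a ratio of 1.84 (1.39 to 2.48) for GlastiKO and 2.19 (1.36 to 3.44) for ECiKO, both against the same control library. Of 5 members with at least 50 UMIs in GlastiKO against control, 2 (Ccnd2 and Hmgb2) lay above 1 and 1 (Stmn1) below, where 13.8% and 8.5% of all genes did. Of 3 in ECiKO against control, 1 (Ccnd2) lay above and 0 below, where 7.74% and 5.35% did. Between the knockouts 0 of 4 members lay on either side, beside 3.6% and 4.32% of all genes. With 1 library per group there is no test of these differences. Choroid plexus-like cells also carried Ccnd2, at 357 CPM, with 21 G2/M UMIs in all.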

How the data were processed

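Raw UMI counts per gene and barcode of 6 libraries were used as deposited, without normalization, for 32285 genes and 7433 barcodes. The labels' protocols and the matrix headers name Cell Ranger 5.0.0 with mm10, but per the submitters' processing notes the tools were Seurat 4 and Cell Ranger 2.1.1. The numbers of deposited barcodes per library (1083, 1076, 710, 1319, 571 and 2674) equal the cell numbers in the labels. The members and lists were chosen with earlier results of these data known.

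Barcodes needed at least 300 genes and at most 20% mitochondrial UMIs. Scrublet (scanpy 1.11.5) called 49 of 6323 as doublets, which were left out, with 19 barcodes led by blood or microglial markers. Leiden clustering (leidenalg 0.10.2, resolution 1, 2000 variable genes, 30 components) ran without the members and other cell cycle genes, and clusters were named "-like" from marker lists, of which 1 gene is not reported here. Of the used barcodes 292 stayed unnamed. Counts were summed per library and class with at least 20 barcodes and tested with edgeR 4.0.16 (R 4.3.3, filterByExpr, TMM, quasi-likelihood test, Benjamini-Hochberg at 0.05 over all genes tested), with DESeq2 1.42.0 as an alternative. The SE of a log2 fold change is its size divided by the square root of F, so it rests on a spread pooled over genes. The endothelial fit had 3 residual degrees of freedom, and the fits between classes 2 or 3. Nothing beyond the word biological replicate says how libraries of a group relate, so p-values measure the spread between these libraries, which may be technical. Classes found in 1 library per group were described without a test, by CPM ratios and their exact 95% intervals. Thinning drew 1000 or 2000 UMIs per barcode with a fixed seed.

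Values per library are given for the 5 members with the most UMIs of each role and for members past an adjusted p of 0.05, at most 4 genes are named per pathway list, and Kif23 and Mcm6 were added after their values or letters were seen. The fitting script was checked on simulated counts. Alternatives were DESeq2, no filter on low counts, the replicate number as a block, leaving out each library, clusters built with the cell cycle genes, a stricter cell filter, other mark thresholds and thinning depths, and doublets kept.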

Additional observations from a re-analysis of the deposited data

How the results depend on the processing

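Of 609 values recomputed under an alternative, 504 were labelled the same and 0 reversed. These labels do not mean that every sign held, since genes that were not called could change sign. Counts of genes called could only be labelled the same or moved. Descriptive values also changed order. GlastiKO and ECiKO G2/M-marked shares were 19.5% and 61.3% as reported, but 77.8% and 70.8% with clusters built from the cell cycle genes too. The ECiKO to control ratio of the replication sum then moved to the other side of 1. Leaving 1 library out gave GlastiKO log2 fold changes in endothelial-like cells of -0.65 to 0.41 for Ccnd2 and -0.55 to 0.96 for Stmn1. For Hmgb2 they stayed at 0.23 to 0.29. In endothelial-like cells 0 members were called under every alternative run, while the number of genes called moved. It was 25 in GlastiKO and 18 in ECiKO as reported, 2 and 1 with DESeq2, and 6 to 33 and 5 to 31 when 1 library was left out. It was 30 in ECiKO with the stricter cell filter. Without the 34-barcode cluster led by Igfbp3 and Plvap, 31 of them from control replicate 1, it was 8 and 1, an alternative added after seeing the data. Over 6904 genes, deviations from the group means correlated at 0.0950, -0.00166 and 0.0366 for the 3 pairs of groups. These correlations do not settle whether the replicate numbers pair the libraries, because some genes differed by replicate number in every group. Oligodendrocyte markers in endothelial-like cells summed to 19.5, 18.1 and 17.3 CPM in replicate 1 of control, GlastiKO and ECiKO. In replicate 2 they summed to 427, 247 and 742 CPM. With the replicate number as a block, 36 and 28 genes were called and again 0 members. Between classes, no library block left 3 members lower in astroglial-like against endothelial-like cells.

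Members called between classes depended on the tool and on single libraries. Lower in astroglial-like against endothelial-like cells were 2 with DESeq2 and 2 to 4 leaving 1 library out (2 without control replicate 2), and 1 was higher with clusters built from the cell cycle genes too. Lower in astroglial-like against oligodendrocyte-like cells were 4 with DESeq2 and 5 to 9 leaving 1 out. Lower in endothelial-like against oligodendrocyte-like cells were 1 with DESeq2 and 1 to 2 leaving 1 out. For endothelial-like against pericyte-like cells, 0 were lower with DESeq2 and 0 lower and 1 higher without a filter, and leaving 1 out gave 0 to 1 in each direction.

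Shares of precursor-like barcodes moved with the threshold and the class limits. With clusters built from the cell cycle genes too, G2/M-marked shares in control, GlastiKO and ECiKO replicate 2 were 100%, 77.8% and 70.8% (72.7% in all). They cover 6, 9 and 106 barcodes of a class that the marking genes help to draw. The GlastiKO share was then not the lowest, and the part of class make-up in the shares was not tested. S-marked shares were 100% in GlastiKO and 81.8% in all. In the same clusters the ECiKO to control ratios were 1.07 for G2/M and 0.880 for replication members. With at least 5 genes the G2/M share was 41.9% in ECiKO and 36.4% in all, and the S share 39.0% in GlastiKO, 47.6% in ECiKO and 46.0% in all. With at least 2 genes the S share was 100% in control, 83.9% in ECiKO and 81.3% in all. Thinned to 2000 UMIs, the G2/M share was 39.7% in all and the S share 29.0% in GlastiKO and 46.6% in all. Thinned to 1000 UMIs, the S share was 21.6% in GlastiKO and 50.5% in all. The stricter cell filter, for shares added after seeing the data, gave 71.3% G2/M-marked in ECiKO, and S shares of 81.6% in ECiKO and 76.7% in all. Leaving 1 library out gave 28.8% to 61.5% for G2/M and 61.5% to 72.6% for S in all precursor-like cells. Without the strongest member of each list the ECiKO ratio of G2/M to replication UMIs was 1.20.

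In other classes, the G2/M share was 0.357% of endothelial-like and 0.538% of oligodendrocyte-like barcodes with at least 2 genes, and 0% of astroglial-like and oligodendrocyte-like ones with at least 5 genes or thinned to 1000 or 2000 UMIs. Leaving 1 library out gave 0% to 0.222% and 0% to 0.0421% for the last 2 classes. S shares in endothelial-like, astroglial-like and oligodendrocyte-like cells were 14.3%, 8.12% and 27.7% with at least 2 genes, 0.119%, 0.135% and 1.71% with at least 5, 0.0659%, 0% and 0.0597% thinned to 1000, and 0.683%, 0.155% and 0.157% thinned to 2000 UMIs. The stricter filter gave 25.1% in oligodendrocyte-like cells. Leaving 1 library out gave 0.262% to 1.77% in astroglial-like and 8.72% to 37.2% in oligodendrocyte-like cells. Except where fewer barcodes, genes or UMIs are part of the alternative itself, the cause of these moves was not tested. Depth limits the S marks, as the thinned shares show, and the 10 control precursor-like barcodes limit each ratio to control.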

Other observations

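Barcodes in which erythroid genes made up over 50% of UMIs were not used in any comparison, and they carried 2 members. Among 270 such deposited barcodes, 236 UMIs fell on G2/M members, of which 139 were Ube2c and 90 Nusap1, a spindle microtubule protein. In the order control, GlastiKO and ECiKO, Ube2c had 26 and 5, 39 and 51, and 11 and 7 UMIs in replicates 1 and 2, so it was present in all 6 libraries. Replication members had 4 UMIs in the 270 barcodes. Of these barcodes 3, all in GlastiKO replicate 1, reached 3 G2/M genes, so a G2/M count that kept blood barcodes would include them. Over all barcodes, Ube2c had 422 deposited UMIs and 281 in used barcodes, and Nusap1 had 252 and 162.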
